A study of Mus musculus with 12 samples.

Results

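The expression of 10 genes of heme breakdown, iron storage, iron import and iron export was examined in cells from infarcted mouse hearts that the labels call macrophages. They were chosen by gene symbol: Hmox1, Blvrb, Slc48a1, Fth1, Ftl1, Slc40a1, Cp, Tfrc, Slc11a1 and Steap3. Each symbol had 1 row in the deposited tables, which list 53801 genes. All 10 were among the 14964 genes that passed the filter on low counts. RNA was measured by bulk sequencing in 4 groups of 3 libraries. Bhlhe41Cre CCR2low and Bhlhe41Cre CCR2hi cells came from mice titled Bhlhe41dTomato-Cre+/-, in which dTomato-Cre is inserted in 1 of the alleles of Bhlhe41, a gene for a transcriptional repressor. WT CCR2low and WT CCR2hi cells came from wild-type mice. The gates are defined by low and high CCR2, the chemokine receptor through which monocytes are drawn to CCL2. All mice are labelled C57BL/6N males, and in all of them the left anterior descending coronary artery had been ligated, so no uninjured heart is among the groups. The age of the mice, the time after ligation, the number of animals behind a library and any pooling are not given in the labels. The p values therefore measure the spread between these libraries, which may be technical.

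Macrophages take up dying cells and red blood cells and so receive heme. Heme oxygenase 1, the product of Hmox1, opens the heme ring and releases iron, carbon monoxide and biliverdin. The iron is held in ferritin, a shell of heavy (Fth1) and light (Ftl1) chains, or leaves the cell through ferroportin (Slc40a1). Transferrin receptor 1 (Tfrc) brings transferrin-bound iron in. Hmox1 is repressed by BACH1 and activated by NRF2, the product of Nfe2l2. Iron regulatory proteins bind a hairpin called the iron-responsive element. In the 5′ untranslated region of ferritin and ferroportin messages this hairpin restrains translation when iron is scarce, a step that RNA counts do not show. In the 3′ untranslated region of the Tfrc message it protects the RNA from decay.

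The hairpins that tie these genes to iron supply are given for the 4 members in which they were found, read from GENCODE release M21 transcripts on GRCm38. The letters searched on the transcript strand were C, a stem of 5 bases, the loop CAGTGN with A, C or T as its last base, and 5 bases that pair with the stem, G with T allowed. Each line gives 25 bases, 5′ to 3′, with the loop in capitals.
Fth1, 5′ untranslated region, chr19:9982734-9982758 (+): cctgcttcaaCAGTGCttgaacgga
Ftl1, 5′ untranslated region, chr7:45459781-45459805 (−): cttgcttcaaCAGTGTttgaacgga
Slc40a1, 5′ untranslated region, chr1:45925467-45925491 (−): acttcagctaCAGTGTtagctaagt
Tfrc, 3′ untranslated region, chr16:32631221-32631245 (+): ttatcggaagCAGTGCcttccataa
Tfrc, 3′ untranslated region, chr16:32631600-32631624 (+): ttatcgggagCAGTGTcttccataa
Tfrc, 3′ untranslated region, chr16:32631665-32631689 (+): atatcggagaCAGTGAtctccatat
Tfrc, 3′ untranslated region, chr16:32631712-32631736 (+): ttatcgggaaCAGTGTttcccataa
The pattern occurred in the 5′ untranslated region of 23 of 20899 genes (0.11%), 3 of them members, and in the 3′ untranslated region of 100 of 21685 genes (0.461%), of which Tfrc is the 1 member. The other 6 members had no match in either region. A match describes the letters and does not show that the site is used.

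Library totals ran from 17.7 to 20.83 M counts (M, 1e+06). Bhlhe41 was at 23.9, 26.0 and 13.3 CPM (counts per M counts, on TMM-scaled library sizes throughout) in Bhlhe41Cre CCR2low, against 41.2, 32.3 and 34.2 in WT CCR2low. In the CCR2hi gate it was at 7.67, 9.45 and 6.80 in Bhlhe41Cre and at 45.4, 39.7 and 27.1 in WT. The groups differ in cell type markers. A list of 17 macrophage markers took 3.53% of counts in Bhlhe41Cre CCR2low, 3.90% in WT CCR2low, 1.03% in Bhlhe41Cre CCR2hi and 0.46% in WT CCR2hi. A list of 16 fibroblast markers took 0.356%, 0.781%, 4.88% and 8.52% in the same 4 groups, so the CCR2hi libraries held more fibroblast than macrophage marker RNA. In bulk libraries fewer cells of a type and less RNA per cell cannot be told apart. Xist, which is silent in male cells, had 1403 to 3699 counts in all 6 Bhlhe41Cre libraries and 0 to 3 in the 6 WT libraries, although all mice are labelled male. The Y-linked genes Ddx3y, Uty, Kdm5d and Eif2s3y together had 105 and 182 counts in the Bhlhe41Cre libraries numbered 3 and 668 to 1741 in the other 10. Genotype and Xist level cannot be told apart here, and member calls that change without both Bhlhe41Cre libraries numbered 3 are given with that value.

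Ferritin messages stood far above the other 8 members. Levels between genes are compared in TPM, which divides by transcript length. Ftl1 was at 32086 ± 5938 TPM in Bhlhe41Cre CCR2low and 24142 ± 2256 in WT CCR2low (SD, n = 3 here and below), and Fth1 at 25299 ± 2037 and 20258 ± 869. In CCR2hi cells both chains lay lower, at 10786 ± 1475 TPM in Bhlhe41Cre and 3760 ± 414 in WT for Ftl1, and at 11302 ± 1099 and 4439 ± 648 for Fth1. Ftl1 exceeded Fth1 in each of the 6 CCR2low libraries and lay below it in each of the 6 CCR2hi libraries, although the ranges of the chains overlapped in both CCR2hi groups. Hmox1 came next in all 4 groups, though in WT CCR2hi its range of 107 to 257 TPM overlapped that of Cp, which averaged 102 ± 45.9 TPM. Behind it in 3 of the groups was Slc11a1, a phagosomal metal transporter, with 471 ± 52.5 TPM in Bhlhe41Cre CCR2low, 576 ± 23.0 in WT CCR2low and 134 ± 6.92 in Bhlhe41Cre CCR2hi. The lowest mean belonged to Cp in Bhlhe41Cre CCR2low (10.6 ± 2.46 TPM), to Tfrc in WT CCR2low (4.54 ± 0.475) and WT CCR2hi (2.94 ± 0.350), and to Slc40a1 in Bhlhe41Cre CCR2hi (4.57 ± 0.590). Within WT CCR2hi the ranges of Tfrc and Slc40a1 overlapped, as did those of Tfrc, Slc40a1 and Steap3 from one neighbour to the next in Bhlhe41Cre CCR2low.

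**Figure D1:**
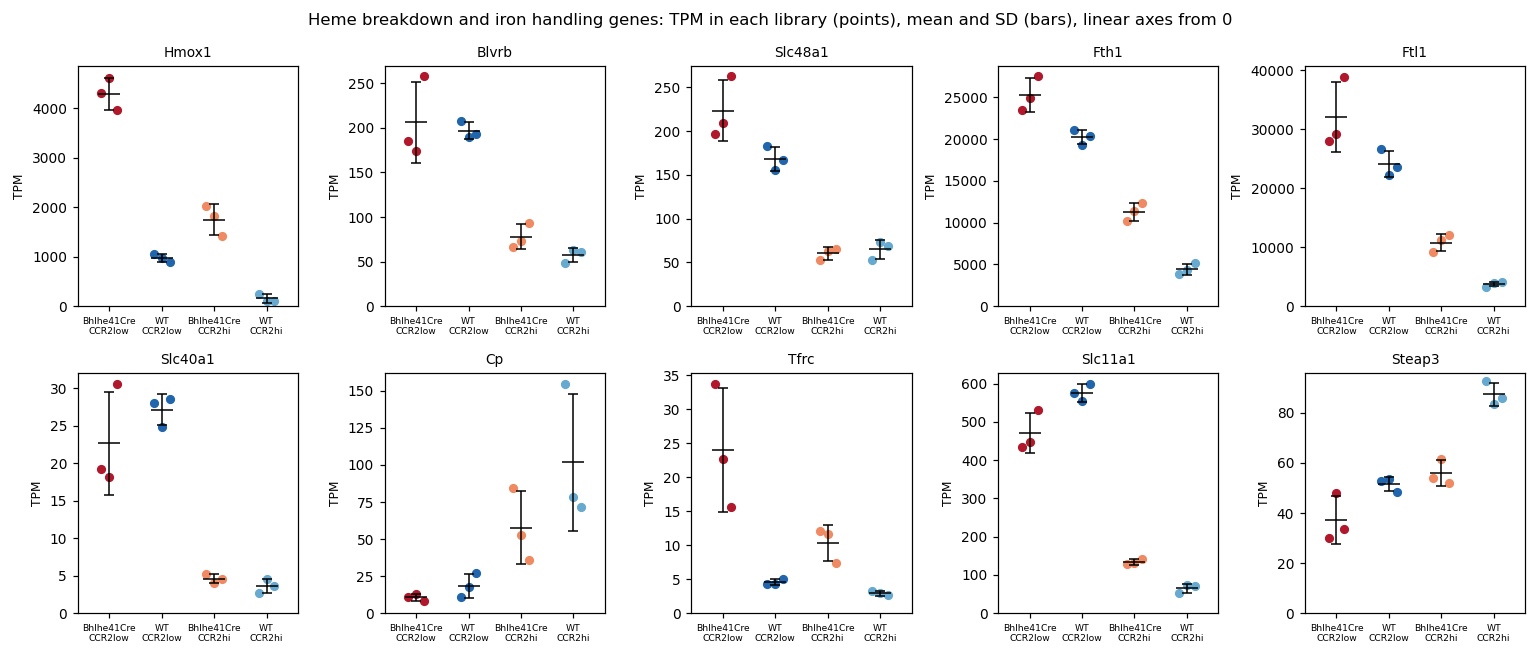
TPM of each of the 10 genes (linear axis from 0) in every library of the 4 groups (points), with the mean and SD of 3 libraries (bars). Hmox1 and Tfrc are higher in both Bhlhe41Cre groups than in the WT group of the same gate, whereas Blvrb and Slc40a1 separate mainly by gate.

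Bhlhe41Cre cells were set against WT cells within each gate. Hmox1 and Tfrc were higher in Bhlhe41Cre cells of both gates, and the ferritin chains and Slc11a1 were higher in the CCR2hi gate. Steap3 was lower in both gates. In CCR2low cells 3 of the 10 members were called, where 43.0% of all genes tested were. Of these, 2 were higher (16.4% of all genes) and 1 was lower (26.7% of all genes). Over all genes the balance of directions in CCR2low cells depended on the libraries in the fit: 38.0% of the called genes were higher, but 51.8 to 56.8% were without Bhlhe41Cre CCR2low library 3, WT CCR2hi library 1 or any one Bhlhe41Cre CCR2hi library. A call here and below means an adjusted p under 0.05 in edgeR's quasi-likelihood test with Benjamini-Hochberg adjustment over all genes tested. In CCR2hi cells 7 members were called, where 32.1% of all genes were, 6 of them higher (16.2% of all genes) and 1 lower (15.9% of all genes). The members' median log2 fold change was 0.21 in CCR2low cells, where that of all genes tested was -0.18, and 1.04 in CCR2hi cells, where that of all genes was -0.03. Each of the 4 groups enters more than 1 of the comparisons below, so they share libraries.

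The composition of the libraries moved with genotype in both gates. In the CCR2hi gate 10 of the 17 macrophage markers were called higher and none lower in Bhlhe41Cre, 5 of 16 fibroblast markers were called lower and all 7 neutrophil markers higher. Neutrophil markers summed to 0.0891 to 0.134% of counts in Bhlhe41Cre CCR2hi, against 0.00468 to 0.0139% in WT CCR2hi. In CCR2low cells 0 of 17 macrophage markers were called in either direction, and 11 of 16 fibroblast markers were called lower in Bhlhe41Cre. Also called lower there were 8 of 8 mural, 9 of 10 cardiomyocyte, 5 of 6 mesothelial and 4 of 4 adipocyte markers, with 0 higher in these lists. Of all genes tested 26.7% were called lower in that comparison. Results are therefore also given relative to the macrophage markers, with libraries scaled so that the geometric mean of the 17 markers is equal. This scaling treats the RNA of a gene as if it came from macrophages. From which cells the RNA of each member came was not tested, so neither scaling corrects for composition. Against the TMM scaling this moves the median gene by 0.11 (log2) in CCR2low cells and by -1.16 in CCR2hi cells. Of all 14964 genes tested, the marker scaling calls 1007 higher and 1298 lower in CCR2low cells. In CCR2hi cells it calls 251 higher and 10739 lower.

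Hmox1 (chr8:75093621-75100589, GRCm38 here and below) had 4338, 4556 and 4765 CPM in Bhlhe41Cre CCR2low cells, against 1177, 1008 and 872 CPM in WT CCR2low cells. It had 1746, 1679 and 1295 CPM in Bhlhe41Cre CCR2hi cells, against 201, 89.6 and 89.0 CPM in WT CCR2hi cells. The genotypes did not overlap in either gate, and every Bhlhe41Cre CCR2hi library lay above every WT CCR2low library. The difference was 4.47-fold in CCR2low cells (log2 2.16 ± 0.28 SE, adjusted p = 0.000115) and 12.4-fold in CCR2hi cells (log2 3.64 ± 0.30, adjusted p = 3.25e-06). As a share of all counts, Hmox1 made up 0.428% in Bhlhe41Cre CCR2low and 0.0968% in WT CCR2low, and 0.171% in Bhlhe41Cre CCR2hi and 0.0129% in WT CCR2hi. Relative to the macrophage markers the difference was much the same in the gates, at log2 2.27 (adjusted p = 0.00622) in CCR2low and 2.29 (adjusted p = 0.000884) in CCR2hi cells. WT CCR2hi library 1 had the highest Hmox1 and the lowest macrophage marker mean of its group, 93.8 CPM against 175 and 201 in the others.

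The remaining heme genes differed less between genotypes. Blvrb (chr7:27447978-27466144) encodes biliverdin reductase B. It had 107, 100 and 179 CPM in Bhlhe41Cre CCR2low and 135, 116 and 110 in WT CCR2low, with overlapping ranges and a log2 difference of 0.09 ± 0.21 (adjusted p = 0.748). In CCR2hi cells it had 33.9, 40.9 and 49.3 CPM in Bhlhe41Cre and 22.1, 29.8 and 29.6 in WT. The ranges were apart, and Blvrb was called higher by 1.52-fold (log2 0.61 ± 0.22, adjusted p = 0.0483). That call was lost in 12 of 22 alternatives, and relative to the macrophage markers the value was -0.53 (adjusted p = 0.0824). Slc48a1 (chr15:97778520-97792692) encodes HRG1, which carries heme out of the phagolysosome. Its CPM was 305, 304 and 464 in Bhlhe41Cre CCR2low and 297, 242 and 237 in WT CCR2low. The ranges did not overlap, but the difference was not called (log2 0.47 ± 0.20, adjusted p = 0.0776), while 7 of 22 alternatives did call it, with adjusted p down to 0.00933. In CCR2hi cells Slc48a1 ranged from 65.6 to 92.9 CPM in Bhlhe41Cre and from 65.3 to 99.8 in WT (log2 -0.07 ± 0.20, adjusted p = 0.83), and relative to the macrophage markers it was called lower in Bhlhe41Cre (log2 -1.19, adjusted p = 0.00135). The TPM ratio of Hmox1 to Blvrb averaged 21.7 ± 5.74 in Bhlhe41Cre CCR2low, 4.94 ± 0.265 in WT CCR2low, 23.4 ± 7.74 in Bhlhe41Cre CCR2hi and 2.94 ± 2.04 in WT CCR2hi.

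**Figure D2:**
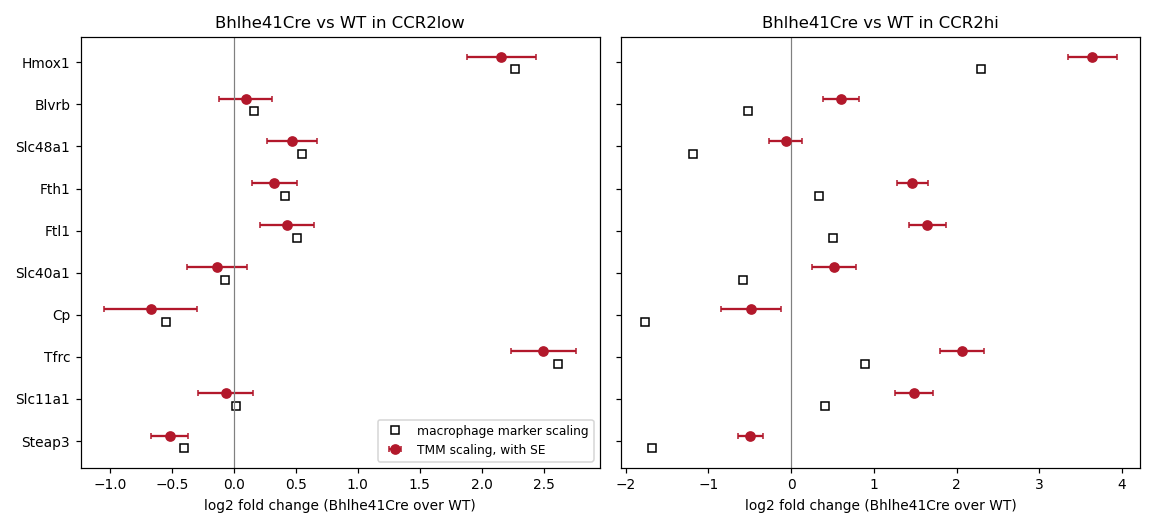
Log2 fold change of Bhlhe41Cre over WT for the 10 genes in CCR2low cells (left panel) and CCR2hi cells (right panel). Filled circles with SE are from the TMM-scaled fit and open squares from scaling to 17 macrophage markers. Hmox1 lies at 2.16 or above in both panels under either scaling. In CCR2hi cells all 10 genes lie lower under the marker scaling, and Blvrb and Slc40a1 move below 0.

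Ferritin differed between genotypes in the CCR2hi gate. Fth1 (chr19:9980598-9985098) had 4332, 5169 and 5564 CPM in Bhlhe41Cre CCR2hi cells, against 1546, 1752 and 2154 CPM in WT CCR2hi cells. Ftl1 (chr7:45457944-45459884) had 4474, 5819 and 6213 CPM in Bhlhe41Cre CCR2hi cells, against 1503, 1805 and 1960 CPM in WT CCR2hi cells. All Bhlhe41Cre libraries lay above all WT libraries for both chains. Fth1 was 2.76-fold higher (log2 1.47 ± 0.19, adjusted p = 9.9e-05) and Ftl1 3.13-fold higher (log2 1.65 ± 0.23, adjusted p = 0.000166). Relative to the macrophage markers neither was called, with log2 0.33 (adjusted p = 0.258) for Fth1 and 0.50 (adjusted p = 0.109) for Ftl1.

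In CCR2low cells the chains were not called. Fth1 had 11562, 12032 and 16259 CPM in Bhlhe41Cre and 11778, 10073 and 9958 in WT (log2 0.33 ± 0.18, adjusted p = 0.168). Ftl1 had 15879, 16259 and 26428 CPM in Bhlhe41Cre and 17069, 13271 and 13160 in WT (log2 0.43 ± 0.22, adjusted p = 0.132). Bhlhe41Cre library 3 was the highest for both, and without both Bhlhe41Cre libraries numbered 3 the log2 values were 0.15 (adjusted p = 0.519) and 0.14 (adjusted p = 0.565). Of 22 alternatives, 8 called Fth1 and 9 called Ftl1 higher, among them those that left out any one Bhlhe41Cre CCR2hi library or WT CCR2hi library 1, which are not part of this comparison and move the median gene by 0.19. Both chains together made up 3.06 ± 0.614% of all counts in Bhlhe41Cre CCR2low, 2.39 ± 0.223% in WT CCR2low, 1.14 ± 0.171% in Bhlhe41Cre CCR2hi and 0.365 ± 0.0540% in WT CCR2hi. The TPM ratio of light to heavy chain was 1.26 ± 0.133 in Bhlhe41Cre CCR2low, 1.19 ± 0.0655 in WT CCR2low, 0.952 ± 0.0448 in Bhlhe41Cre CCR2hi and 0.850 ± 0.0531 in WT CCR2hi. Ferritin genes have near-identical pseudogenes, so their counts are uncertain to the extent that reads were split. The pseudogene Ftl1-ps1 held 0.0378 to 0.0566% as many counts as Ftl1.

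Iron export showed no called difference between genotypes. Slc40a1 (chr1:45908068-45926523) had 45.4, 41.9 and 83.5 CPM in Bhlhe41Cre CCR2low and 72.2, 57.7 and 57.7 in WT CCR2low, with library 3 above and the other Bhlhe41Cre libraries below all WT libraries (log2 -0.14 ± 0.24, adjusted p = 0.678). Without both Bhlhe41Cre libraries numbered 3 it was called lower (log2 -0.52, adjusted p = 0.0464). In CCR2hi cells Slc40a1 was near the bottom of the range, at 9.35, 8.54 and 9.69 CPM in Bhlhe41Cre and 4.98, 8.51 and 5.76 in WT (log2 0.52 ± 0.27, adjusted p = 0.15). Cp (chr3:19957054-20009145) encodes ceruloplasmin, a copper oxidase that turns exported iron into the ferric form. Its CPM was 25.6, 26.6 and 13.3 in Bhlhe41Cre CCR2low and 22.7, 31.7 and 50.2 in WT CCR2low (log2 -0.67 ± 0.37, adjusted p = 0.163). In CCR2hi cells it was 161, 105 and 76.5 in Bhlhe41Cre and 238, 115 and 125 in WT (log2 -0.48 ± 0.36, adjusted p = 0.332). The ranges overlapped in both gates, and in CCR2hi cells Cp was called lower relative to the macrophage markers (log2 -1.77, adjusted p = 0.00941).

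Tfrc (chr16:32608920-32632794), the message with 4 matches to the hairpin pattern, had the largest difference between genotypes of the members in CCR2low cells. It had 109, 73.0 and 55.4 CPM in Bhlhe41Cre CCR2low cells, against 12.9, 13.7 and 15.4 CPM in WT CCR2low cells. In the CCR2hi gate it had 32.6, 36.2 and 19.3 CPM in Bhlhe41Cre and 7.74, 7.41 and 5.91 CPM in WT. The genotypes did not overlap in either gate, and in both gates the lowest Bhlhe41Cre value was that of library 3. Tfrc was 5.65-fold higher in CCR2low cells (log2 2.50 ± 0.26, adjusted p = 3.95e-05) and 4.18-fold higher in CCR2hi cells (log2 2.06 ± 0.27, adjusted p = 0.000112). Without both libraries numbered 3 the log2 values were 2.70 (adjusted p = 8.35e-06) and 2.29 (adjusted p = 2.46e-05). Relative to the macrophage markers the CCR2low difference was called (log2 2.62, adjusted p = 0.00151) and the CCR2hi difference was not (log2 0.90, adjusted p = 0.056). The TPM ratio of the exporter Slc40a1 to the importer Tfrc was 0.571, 0.800 and 1.95 in Bhlhe41Cre CCR2low and averaged 5.99 ± 0.450 in WT CCR2low. In CCR2hi cells that ratio averaged 0.464 ± 0.142 in Bhlhe41Cre and 1.26 ± 0.382 in WT.

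**Figure D3:**
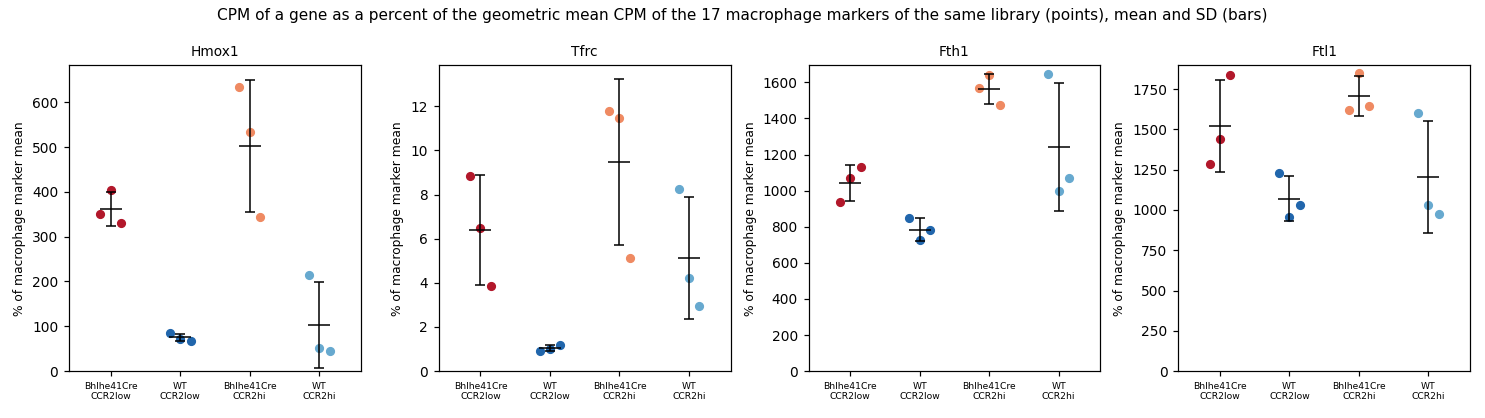
CPM of Hmox1, Tfrc, Fth1 and Ftl1 in each library as a percent of the geometric mean CPM of 17 macrophage markers in that library (points; linear axes from 0), with mean and SD of 3 libraries. Hmox1 lies at 331% or more in every Bhlhe41Cre library, against at most 214% in WT CCR2hi and 84.8% in WT CCR2low.

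Slc11a1 (chr1:74375195-74386062), also called NRAMP1, moves metal ions out of the phagosome. In CCR2low cells it had 401, 394 and 601 CPM in Bhlhe41Cre and 540, 469 and 455 in WT, with overlapping ranges (log2 -0.07 ± 0.22, adjusted p = 0.825). In CCR2hi cells it had 109, 122 and 148 CPM in Bhlhe41Cre, against 29.6, 53.8 and 52.0 CPM in WT. The CCR2hi ranges were apart, and Slc11a1 was 2.80-fold higher in Bhlhe41Cre there (log2 1.49 ± 0.23, adjusted p = 0.000393). That difference relative to the macrophage markers was 0.42 on the log2 scale and was not called (adjusted p = 0.131). Neutrophils also express Slc11a1, and the part of the neutrophil markers in this difference was not tested. Steap3 (chr1:120190757-120272705) encodes an endosomal ferrireductase that reduces iron taken up with transferrin. It had 57.1, 83.6 and 77.6 CPM in Bhlhe41Cre CCR2low and 114, 107 and 91.6 in WT CCR2low, and 90.1, 109 and 91.0 CPM in Bhlhe41Cre CCR2hi and 140, 131 and 137 in WT CCR2hi. It was lower in all Bhlhe41Cre libraries than in any WT library of the same gate. The log2 difference was -0.52 ± 0.15 (adjusted p = 0.0133) in CCR2low and -0.49 ± 0.15 (adjusted p = 0.0227) in CCR2hi cells. These are the smallest of the called member differences in CCR2low and CCR2hi cells, and the calls were lost in 10 and 5 of 22 alternatives. Without both Bhlhe41Cre libraries numbered 3 the CCR2hi difference of Steap3 was not called (log2 -0.45, adjusted p = 0.069). Set against the macrophage markers, Steap3 was not called in CCR2low cells (log2 -0.41, adjusted p = 0.428) and was called lower by more in CCR2hi cells (log2 -1.68, adjusted p = 0.000609).

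CCR2low cells were then set against CCR2hi cells of the same genotype. In CPM, 8 members were higher and 2 lower in CCR2low cells of both genotypes. Relative to the macrophage markers no member, and few of all genes, were called higher. In Bhlhe41Cre all 10 members were called, where 54.1% of all genes tested were, 8 of them higher (24.9% of all genes) and 2 lower (29.1% of all genes). In WT all 10 were called, where 59.8% of all genes were, 8 of them higher (29.8% of all genes) and 2 lower (30.0% of all genes). The groups did not overlap for any of the 10 members in either genotype, where they did not overlap for 61.3% of all genes tested in Bhlhe41Cre and 66.0% in WT. The median log2 fold change of the members was 1.58 in Bhlhe41Cre, where that of all genes was -0.01, and 2.35 in WT, where that of all genes was 0.01. All 17 macrophage markers were called higher and all 16 fibroblast markers lower in CCR2low cells of both genotypes. Scaling to the macrophage markers moves the median gene by -1.98 in Bhlhe41Cre and by -3.25 in WT. It leaves 0 members called higher and 3 lower in Bhlhe41Cre, where 75 and 13533 of all 14964 genes tested were. In WT it leaves 0 higher and 6 lower, where 113 and 14237 of all genes were.

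By role, the exporter Slc40a1 had one of the largest gate differences, 6.19-fold higher in CCR2low cells in Bhlhe41Cre (log2 2.63 ± 0.26, adjusted p = 2.24e-06) and 9.75-fold in WT (log2 3.29 ± 0.27, adjusted p = 3.82e-07). Relative to the macrophage markers it was not called, at log2 0.61 in Bhlhe41Cre (adjusted p = 0.0597) and 0.10 in WT (adjusted p = 0.752). Slc11a1 was 3.69-fold higher in Bhlhe41Cre (log2 1.88 ± 0.23) and 10.8-fold in WT (log2 3.43 ± 0.25), and it was at log2 -0.10 and 0.30 relative to the markers. Ftl1 was 3.55-fold higher in Bhlhe41Cre (log2 1.83 ± 0.23) and 8.26-fold in WT (log2 3.05 ± 0.24), with -0.17 in both genotypes relative to the markers. These 3 genes lay within 0.61 (log2) of the macrophage markers in both genotypes, as did Hmox1, whose values are given below. Fth1 was 2.65-fold higher in Bhlhe41Cre (log2 1.40 ± 0.19) and 5.83-fold in WT (log2 2.54 ± 0.19), and at -0.58 and -0.66 relative to the markers.

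Among the heme genes, Hmox1 was 2.89-fold higher in Bhlhe41Cre CCR2low than CCR2hi cells (log2 1.53 ± 0.27, adjusted p = 0.000314) and 8.06-fold in WT (log2 3.01 ± 0.29, adjusted p = 1.15e-06). Its log2 values relative to the markers were -0.47 (adjusted p = 0.327) in Bhlhe41Cre and -0.46 (adjusted p = 0.341) in WT. Slc48a1 was the 1 heme gene with a larger CPM difference in Bhlhe41Cre, 4.47-fold (log2 2.16 ± 0.21), than in WT, 3.09-fold (log2 1.63 ± 0.21), and the difference between these was not called (log2 0.53, adjusted p = 0.233). Relative to the markers Slc48a1 was at 0.18 in Bhlhe41Cre and at -1.56 in WT. Blvrb was 3.11-fold higher in Bhlhe41Cre (log2 1.64 ± 0.22) and 4.44-fold in WT (log2 2.15 ± 0.22), and at -0.36 and -1.05 relative to the markers.

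Cp and Steap3 ran the other way. Cp fell by 2.38 ± 0.39 on the log2 scale in CCR2low against CCR2hi cells of Bhlhe41Cre (adjusted p = 0.000149) and by 2.19 ± 0.38 in WT (adjusted p = 0.000236). Cp was lower still relative to the macrophage markers, at log2 -4.38 (adjusted p = 6.48e-06) in Bhlhe41Cre and -5.60 (adjusted p = 2.57e-07) in WT. Steap3 fell by 0.41 ± 0.15 in Bhlhe41Cre (adjusted p = 0.032) and by 0.38 ± 0.15 in WT (adjusted p = 0.0385), and each of these calls was lost in 5 of 22 alternatives. Its values relative to the markers were -2.39 (adjusted p = 7.28e-06) in Bhlhe41Cre and -3.66 (adjusted p = 5.06e-08) in WT. The fibroblast markers lay in the same direction as both genes, and their part was not tested. Tfrc was 2.70-fold higher in CCR2low cells in Bhlhe41Cre (log2 1.43 ± 0.25, adjusted p = 0.000298) and 1.99-fold in WT (log2 1.00 ± 0.27, adjusted p = 0.00557), but turned to -0.57 and -2.29 relative to the markers. The WT call of Tfrc was lost on the TPM scale, with adjusted p = 0.111 for log2(TPM + 1).

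**Figure D4:**
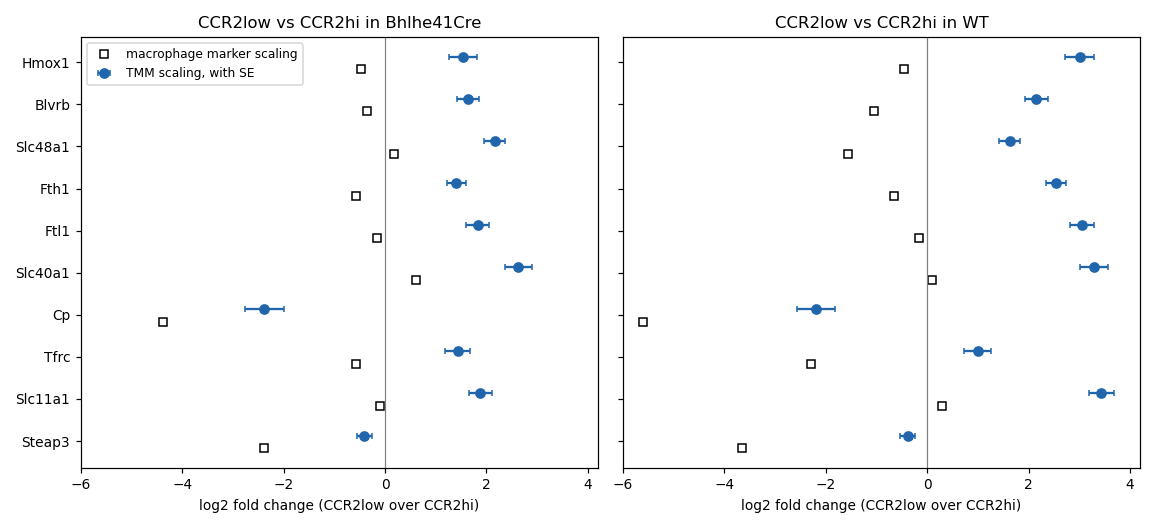
Log2 fold change of CCR2low over CCR2hi for the 10 genes in Bhlhe41Cre (left panel) and WT (right panel), with filled circles and SE for the TMM-scaled fit and open squares for scaling to 17 macrophage markers. With TMM 8 genes lie above 0 and Steap3 and Cp below, while under the marker scaling 0 of the 10 are called above 0. That scaling called 75 (Bhlhe41Cre) and 113 (WT) of all 14964 genes tested higher.

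Whether the gate difference itself depended on genotype was tested as an interaction, the CCR2low minus CCR2hi log2 difference in Bhlhe41Cre minus that in WT. Of the members, 4 were called, where 12.6% of all genes tested were, all 4 of them lower (7.85% of all genes) and 0 higher (4.74% of all genes), with a median of -0.58 where that of all genes was -0.18. The called genes were Slc11a1 (-1.55 ± 0.32, adjusted p = 0.00903), Fth1 (-1.14 ± 0.26, adjusted p = 0.0147), Hmox1 (-1.48 ± 0.38, adjusted p = 0.0243) and Ftl1 (-1.22 ± 0.31, adjusted p = 0.0243). For each the gates lay closer together in Bhlhe41Cre than in WT. Of the macrophage markers, 7 of 17 were called in the same direction. So were 6 of 7 neutrophil, 8 of 10 cardiomyocyte, 5 of 8 mural, 4 of 6 T and NK cell and 4 of 6 mesothelial markers. Of the fibroblast markers 1 of 16 was, and 0 markers of these lists were called higher. Relative to the macrophage markers the 4 values were 0.08 for Fth1, 0.00 for Ftl1, -0.02 for Hmox1 and -0.40 for Slc11a1, none of them called (lowest adjusted p = 0.323). Under that scaling Tfrc (1.72, adjusted p = 0.0313), Slc48a1 (1.74, adjusted p = 0.0088) and Steap3 (1.27) were called higher, as were 5950 of all 14964 genes tested. The count of 4 was 2 without library 1 of WT CCR2low or of Bhlhe41Cre CCR2low, and 1 without library 2 or 3 of Bhlhe41Cre CCR2hi. Without both Bhlhe41Cre libraries numbered 3 Slc40a1 was also called lower (-1.01, adjusted p = 0.0399), where it was not called with all libraries (-0.66, adjusted p = 0.242).

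A wider list of 55 genes of heme and iron metabolism, of which 52 were tested, holds no member. Between genotypes in CCR2low cells 12 were called higher (16.4% of all genes), 12 lower (26.7% of all genes) and 28 not, with a median log2 fold change of -0.32, where that of all genes was -0.18. Between genotypes in CCR2hi cells 14 were called higher (16.2% of all genes), 3 lower (15.9% of all genes) and 35 not, with a median of 0.18, where that of all genes was -0.03. By role, 5 of 10 regulators were called higher and 2 lower in Bhlhe41Cre CCR2low cells, and 4 higher and 0 lower in CCR2hi cells. Of 13 genes of iron import and reduction, 4 were called higher and 4 lower in CCR2low cells, and 4 higher and 2 lower in CCR2hi cells. Of 8 heme synthesis genes, 1 was called higher and 2 lower in CCR2low cells, and 1 higher and 0 lower in CCR2hi cells. Of 10 genes of heme transport and breakdown, 1 was called higher and 2 lower in CCR2low cells, and 3 higher and 1 lower in CCR2hi cells. Of 3 tested genes of export and oxidation, 0 were called in either gate.

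Spic, a transcription factor induced by heme and needed for iron-recycling macrophages of the spleen, was among the 3 genes with the lowest p in both gates. It had 20.4, 15.2 and 15.1 CPM in Bhlhe41Cre CCR2low, against 4.58, 3.42 and 3.21 CPM in WT CCR2low. In CCR2hi cells it had 3.40, 5.11 and 4.18 CPM in Bhlhe41Cre, against 0.739, 0.263 and 0.815 CPM in WT. The genotypes did not overlap in either gate. Spic was 4.52-fold higher in CCR2low cells (log2 2.18 ± 0.27, adjusted p = 9.04e-05) and 6.88-fold in CCR2hi cells (log2 2.78 ± 0.33, adjusted p = 5.82e-05). Both calls held relative to the macrophage markers, at log2 2.29 (adjusted p = 0.00232) and 1.65 (adjusted p = 0.00422). The WT CCR2hi values of Spic rest on 5 to 16 counts, so the size of the CCR2hi difference is uncertain. It ran from log2 1.538 to 3.045 in the other 22 alternatives. Mafk, a small MAF protein that pairs with BACH1 or NRF2, was 1.92-fold higher in CCR2low cells (log2 0.94 ± 0.15, adjusted p = 0.000443), and not called relative to the markers (log2 1.05, adjusted p = 0.0653). In CCR2hi cells Alas1, the first enzyme of heme synthesis, was 2.39-fold higher in Bhlhe41Cre (log2 1.25 ± 0.13, adjusted p = 2.04e-05), but at 0.03 relative to the macrophage markers (adjusted p = 0.935). Lrp1, a receptor that takes up heme bound to hemopexin, was lower there (log2 -1.18 ± 0.16, adjusted p = 0.000132), and at -2.41 relative to the markers (adjusted p = 0.000129). In the other gate Mafk, Alas1 and Lrp1 each lay in the same direction, with ranges apart. Mafk had 208 to 248 CPM in Bhlhe41Cre CCR2hi and 130 to 191 in WT CCR2hi. Alas1 had 106 to 112 CPM in Bhlhe41Cre CCR2low and 75.5 to 86.7 in WT CCR2low. Lrp1 had 1434 to 1931 and 2148 to 2444 CPM in these CCR2low groups.

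Other genes of the wider list with direct ties to the members are named here after their values were seen. Most of them are higher in Bhlhe41Cre, whereas the whole list had 12 called higher and 12 lower in CCR2low cells. Lying lower in Bhlhe41Cre CCR2low were Trf (transferrin), at 420 to 636 CPM against 934 to 995 in WT, and Hmox2, at 103 to 143 against 145 to 165. In CCR2hi cells the ranges of Trf and Hmox2 overlapped between genotypes. Bach1 was 2.50-fold higher in Bhlhe41Cre CCR2low cells (log2 1.32 ± 0.32, adjusted p = 0.00485), and Nfe2l2 was 1.68-fold higher in Bhlhe41Cre CCR2hi cells (log2 0.75 ± 0.15, adjusted p = 0.00226). In CCR2low cells Nfe2l2 was not called (log2 -0.20 ± 0.15, adjusted p = 0.298), with 294, 282 and 271 CPM in Bhlhe41Cre, all below the 319, 327 and 326 CPM in WT. Of the RNA-binding proteins that read the hairpins, Ireb2 (IRP2) was 2.09-fold higher (log2 1.06 ± 0.23, adjusted p = 0.00242) and Aco1 (IRP1) lower (log2 -0.34 ± 0.11, adjusted p = 0.0285) in CCR2low cells. Flvcr1, a heme exporter, was higher in Bhlhe41Cre in both gates, by 1.69-fold in CCR2low (adjusted p = 0.00366) and 2.52-fold in CCR2hi cells (adjusted p = 0.000163). Slc11a2 (DMT1), which carries iron out of the endosome, was higher by 2.49-fold in CCR2low (adjusted p = 0.000735) and 2.20-fold in CCR2hi cells (adjusted p = 0.00267). Slc25a37 (mitoferrin 1), a carrier of iron into mitochondria, was higher by 2.20-fold in CCR2low (adjusted p = 0.000736) and 1.86-fold in CCR2hi cells (adjusted p = 0.00472). In CCR2hi cells the log2 values of Nfe2l2 (0.75), Slc11a2 (1.14) and Slc25a37 (0.90) are smaller in size than the shift of -1.16 that the macrophage marker scaling gives the median gene.

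**Figure D5:**
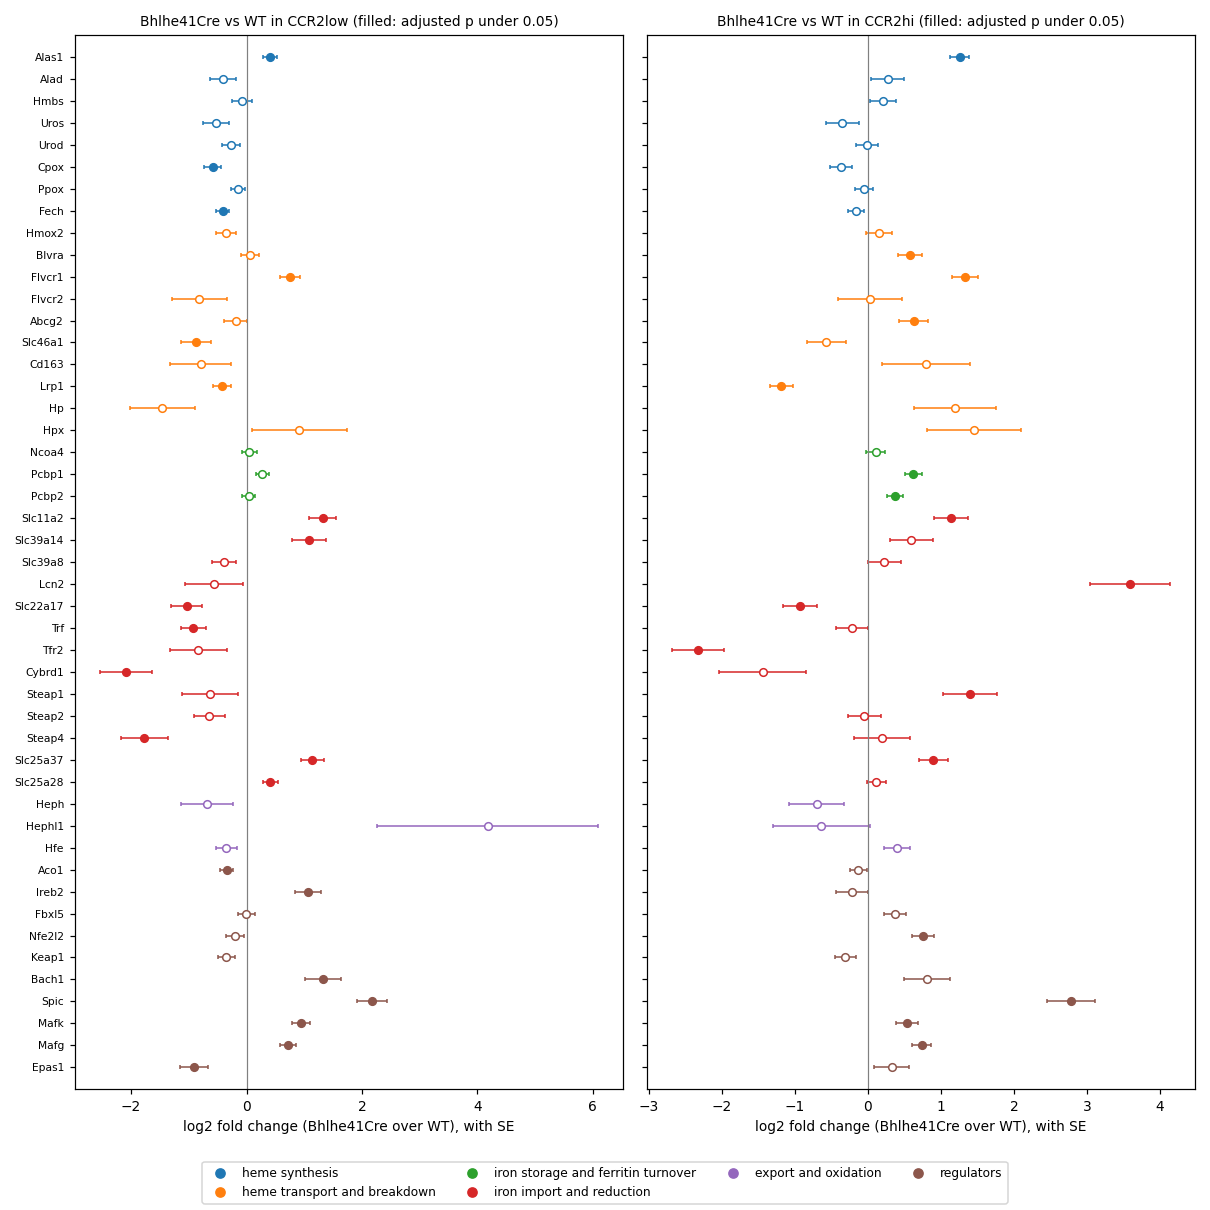
Log2 fold change of Bhlhe41Cre over WT with SE for 47 tested genes of 6 roles in the wider heme and iron list, coloured by role, in CCR2low cells (left panel) and CCR2hi cells (right panel). Filled points have an adjusted p under 0.05: 11 higher and 10 lower in the left panel, 14 higher and 3 lower in the right panel.

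Between the gates the wider list had 22 genes called higher (24.9% of all genes), 10 lower (29.1% of all genes) and 20 not called in Bhlhe41Cre CCR2low against CCR2hi cells, with a median of 0.23, where that of all genes was -0.01. In WT 25 were called higher (29.8% of all genes), 10 lower (30.0% of all genes) and 17 not, with a median of 0.39, where that of all genes was 0.01. Blvra, the biliverdin reductase of adult tissues, was higher in CCR2low cells by log2 1.64 ± 0.17 in Bhlhe41Cre (adjusted p = 2.5e-06) and 2.16 ± 0.17 in WT (adjusted p = 2.69e-07), but at -0.33 and -1.04 relative to the macrophage markers. The metalloreductases Steap1 (log2 -3.74 ± 0.44, adjusted p = 9.6e-06) and Steap2 (log2 -3.17 ± 0.26, adjusted p = 4.87e-07) were lower in Bhlhe41Cre CCR2low than CCR2hi cells, and at -5.68 and -5.16 relative to the markers. In WT, Hfe, a partner of transferrin receptors, was higher in CCR2low cells (log2 2.06 ± 0.19, adjusted p = 7.51e-07), as was Flvcr1 (log2 1.96 ± 0.18, adjusted p = 9.67e-07). Both turned round relative to the markers in WT, to -1.11 and -1.35. In Bhlhe41Cre both also lay higher in CCR2low cells (Hfe 103 to 132 CPM, Flvcr1 47.7 to 61.8) than in CCR2hi cells (44.0 to 54.9 and 19.1 to 23.4). In the interaction test 3 of the 52 were called higher (4.74% of all genes) and 7 lower (7.85% of all genes). Among them were Lcn2, a siderophore-binding protein of neutrophils and macrophages (-4.16 ± 0.73, adjusted p = 0.00499), and Alas1 (-0.85 ± 0.18, adjusted p = 0.0104). Under the marker scaling Lcn2 was at -2.93 (adjusted p = 0.0195) and Alas1 at 0.48 (adjusted p = 0.403). Lcn2 had 99.0, 40.7 and 38.7 CPM in Bhlhe41Cre CCR2hi and 5.67, 4.94 and 4.18 in WT CCR2hi, the group pair in which all 7 neutrophil markers were higher in Bhlhe41Cre.

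Red cell RNA was looked for because it would bring heme genes of its own. The erythroid markers summed to 0.00258 to 0.0376% of counts in Bhlhe41Cre CCR2low, 0.0203 to 0.0518% in WT CCR2low, 0.0163 to 0.142% in Bhlhe41Cre CCR2hi and 0.0101 to 0.0534% in WT CCR2hi. The ranges overlapped, and 0 of the 5 erythroid markers tested were called in any of the 5 comparisons.

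Across the 12 libraries the members fell along 2 patterns, described here by Pearson's r of log2 CPM, with no test, since the libraries share 4 groups. The ferritin chains followed each other (r = 1.00 when rounded) and were followed by Slc11a1 (0.98 with Fth1, 0.99 with Ftl1), Blvrb (0.96 and 0.97) and Slc40a1 (0.92 and 0.93). Hmox1 was closest to Tfrc (0.92) and Fth1 (0.86), and Tfrc had an r of only 0.47 with Slc40a1. Cp ran against Blvrb and Slc48a1 (-0.97 each), and Steap3 against Tfrc (-0.90). Among 10534 other genes with a mean of at least 5 CPM, those most like Hmox1 were Eif4a1 (0.993), Por (0.99) and Il10 (0.989). Most like Slc40a1 were Dnm2 (0.994), Mocos (0.994) and Mfsd11 (0.993), and most like Tfrc were Txndc9 (0.986), Mettl6 (0.985) and Mmp19 (0.983).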

How the data were processed

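The tools named in the submitters' processing notes are CASAVA 1.8, STAR 2.4.0j and RSEM, with mm10 as the build. The sources used here give neither the RSEM version nor the annotation or strand setting. The deposited tables hold expected counts per gene, already whole numbers, and TPM values computed by the authors. Columns named KD were matched to the Bhlhe41Cre samples by gate and number, and the group was taken from the title, since other label fields of these samples are shifted.

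In R 4.3.3, edgeR 4.0.16 scaled the counts of all 12 libraries by TMM, kept 14964 genes (filterByExpr) and fitted 1 mean per group with a robust quasi-likelihood model (8 residual degrees of freedom; common biological variation 18.9%). Tests were two-sided. SE is the log2 fold change over the square root of F. The procedure was tested on simulated counts. Alternatives used library size, DESeq2 1.42.0, macrophage marker scaling, other filters, limma 3.58.1 on log2(TPM + 1) and log2(TPM + 0.1), a 1.5-fold minimum, the groups compared alone, a replicate block and each library left out. Leaving out both Bhlhe41Cre libraries numbered 3 was added after the data were seen.

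Residuals of same-numbered Bhlhe41Cre libraries correlated between the gates (0.23, 0.12 and 0.40). Library 2 of Bhlhe41Cre CCR2low was nonetheless closest to library 1 of Bhlhe41Cre CCR2hi. The main tests did not pair libraries, and a replicate block was used only as an alternative. The members and lists were chosen with earlier results of these data known. All 10 members, the 3 wider-list genes of lowest p per comparison and the 3 genes most like Hmox1, Slc40a1 and Tfrc are named, with exceptions stated; 1 gene of the wider list is not reported here.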

Additional observations from a re-analysis of the deposited data

Results flagged for a closer look

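For 4 of the 10 genes the difference between CCR2low and CCR2hi cells was not the same in the genotypes, by the interaction term of edgeR's quasi-likelihood fit, which called 12.6% of all genes tested. The log2 difference between the gates in Bhlhe41Cre minus that in WT was -1.55 for Slc11a1 (adjusted p = 0.00903), -1.14 for Fth1 (adjusted p = 0.0147), -1.48 for Hmox1 (adjusted p = 0.0243) and -1.22 for Ftl1 (adjusted p = 0.0243). Each of these genes was called higher in Bhlhe41Cre than in WT CCR2hi cells, as were 16.2% of all genes tested. The interaction term uses these same libraries. The macrophage markers took 1.03 ± 0.148% of counts in Bhlhe41Cre CCR2hi and 0.46 ± 0.177% in WT CCR2hi (SD, n = 3). The neutrophil markers took 0.114 ± 0.0228% and 0.00848 ± 0.00484% in the same groups. Under scaling to the macrophage markers the values were -0.40 for Slc11a1, 0.08 for Fth1, -0.02 for Hmox1 and 0.00 for Ftl1, with no call (lowest adjusted p = 0.323). Only 1 of the 10 genes was called without library 2 or without library 3 of Bhlhe41Cre CCR2hi.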

How the results depend on the processing

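The numbers of members called were 10 (Bhlhe41Cre gates), 10 (WT gates), 3 (genotype in CCR2low), 7 (genotype in CCR2hi) and 4 (interaction). Macrophage marker scaling gave 3, 6, 2, 4 and 3, where it called 13608, 14350, 2305, 10990 and 6076 of all 14964 genes tested. Of these members 0, 0, 2, 1 and 3 were higher, against 8, 8, 2, 6 and 0 with TMM. In the interaction the 3 were other genes than the 4 called with TMM, and lay in the opposite direction. The CCR2low genotype count was 5 under DESeq2, no filter, log2(TPM + 1), log2(TPM + 0.1) and the groups compared alone, and the interaction count 1 under a 1.5-fold minimum. Leaving out each library gave 9 to 10, 9 to 10, 2 to 5, 5 to 7 and 1 to 5. The 5 for genotype in CCR2low came without WT CCR2hi library 1 or any one Bhlhe41Cre CCR2hi library, and the 5 for the interaction without Bhlhe41Cre CCR2low library 3. Without both Bhlhe41Cre libraries numbered 3 the counts were 10, 10, 4, 6 and 5. With a replicate block the counts stayed at 10, 10, 3, 7 and 4, and no member's call changed. Between genotypes same-numbered libraries correlated at -0.21, -0.06 and -0.26 in CCR2low and 0.10, -0.16 and 0.15 in CCR2hi, and between the WT gates at -0.06, 0.03 and -0.05.

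Reversals came under macrophage marker scaling alone. In the Bhlhe41Cre gates they were Hmox1 -0.47, Blvrb -0.36, Fth1 -0.58, Ftl1 -0.17, Tfrc -0.57, Slc11a1 -0.10 and Blvra -0.33. In the WT gates they were Hmox1 -0.46, Blvrb -1.05, Slc48a1 -1.56, Fth1 -0.66, Ftl1 -0.17, Tfrc -2.29, Blvra -1.04, Hfe -1.11 and Flvcr1 -1.35. The others were Blvrb -0.53 between genotypes in CCR2hi, and Fth1 0.08, Ftl1 0.002, Steap3 1.27 and Alas1 0.48 in the interaction. Under that scaling Fth1 alone of these was called in the Bhlhe41Cre gates and Steap3 alone in the interaction. In the WT gates all but Hmox1 and Ftl1 were called. The rest changed sign without a call, such as Ftl1 in the interaction (adjusted p = 0.999). The scaling's own shift of the median gene (-1.98, -3.25, 0.11, -1.16 and 1.27, in the order of the counts above) goes with these reversals.

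Under the other 22 alternatives the genotype difference of Hmox1 stayed called, at 2.06 to 2.35 in CCR2low and 3.44 to 4.12 in CCR2hi, as did that of Tfrc, at 2.11 to 2.86 and 1.498 to 2.292. In the interaction, calls were lost in 8 of 21 alternatives for Hmox1, 7 for Ftl1, 3 for Fth1 and 0 for Slc11a1. Over all genes, the share of calls that were higher was 46.1%, 49.8%, 38.0%, 50.4% and 37.7%, in the order of the counts above. Macrophage marker scaling gave 0.551%, 0.787%, 43.7%, 2.28% and 97.9%, and library size scaling 32.0%, 44.3%, 35.6%, 61.8% and 19.5%. On log2(TPM + 1) the shares were 30.6%, 31.0%, 34.0%, 34.4% and 35.9%, and on log2(TPM + 0.1) 29.8%, 31.2%, 33.0%, 37.6% and 26.0%. With no filter the CCR2low share was 52.4% and the interaction share 62.5%, and with the groups compared alone the CCR2low share was 53.3%. A 1.5-fold minimum gave 34.6% in the Bhlhe41Cre gates and 27.6% in the interaction. Leaving out each library gave 37.7 to 50.4% in the WT gates, 36.6 to 56.8% for genotype in CCR2low and 28.5 to 63.0% in the interaction. With 3 libraries a group and unknown pooling, small differences could not be settled.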
